A study of Mus musculus with 42 samples.

Results

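The mRNAs of the interleukin 1 (IL-1) family and its processing were followed in mouse macrophages that lack or retain tristetraprolin. The 10 members were taken by symbol from the deposited tables and are the ligands Il1a, Il1b and Il18, the antagonists Il1rn and Il18bp, the receptor chain Il1rap, and the inflammasome parts Nlrp3, Mefv, Casp1 and Casp4. All 10 were found, among 21951 genes with expression values and 12558 genes with decay values.

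The cells were bone marrow-derived macrophages of C57BL/6 mice, grown in CSF-1. In ΔM cells (labelled TTP-/-), loxP-flanked Zfp36, the gene of tristetraprolin (TTP), was deleted by Cre driven from the LysM locus, which is active in myeloid cells. WT cells were from littermates that kept Zfp36. Both genotypes were left without lipopolysaccharide (LPS, a bacterial cell wall component, 10 ng/ml) or stimulated for 3 or 6 h, and at 3 and 6 h actinomycin D (ActD, 5 µg/ml), which stops transcription, was added for 45 or 90 min or not at all, which made 42 libraries in 14 groups of 3. The tables hold 1 pooled value per group, so neither the depth nor the spread between the 3 replicates is known, no difference could be tested, and every comparison below describes the authors' means.

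IL-1α and IL-1β, products of Il1a and Il1b, bind the same receptor, which signals once the accessory chain encoded by Il1rap joins it. Il1rn encodes the receptor antagonist, which occupies that receptor without signalling. IL-1β and IL-18 are made as precursors that caspase-1 (Casp1) cuts after an inflammasome sensor such as NLRP3 or pyrin (Mefv) has assembled. Mouse Casp4, also called caspase-11, responds to LPS inside the cell, and Il18bp encodes a secreted decoy that binds IL-18. TTP binds AU-rich stretches in the 3′ UTR of mRNAs, typically around the heptamer UAUUUAU, and brings in the enzymes that remove the poly(A) tail.

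To show what TTP can recognise in these genes, the stretches below are from the places in the 3′ UTRs at which the study's crosslinking in LPS-treated macrophages placed TTP. Only the first listed 3′ UTR site of each gene was used, and any further site is not shown. From a site longer than 30 bases, the 30 bases with the most heptamers were picked. The stretches run 5′ to 3′ in the sense of the mRNA, with T for U, and the heptamer TATTTAT is in capitals. Each lies in the annotated 3′ UTR and its letters are those of the mm9 genome at the position given.
Il1b, chr2:129190533-129190562, minus strand: cTATTTATTTATgTATTTATtgattggttg
Il1a, chr2:129125844-129125873, minus strand: ttttatctatgTATTTATaaataTATTTAT
Nlrp3, chr11:59380332-59380361, plus strand: atttataaaacccatttttgTATTTATtgt
Il1rn, chr2:24205742-24205748, plus strand: ttatttt
The stretch of Il1b holds 3 heptamers, of which 2 overlap, that of Il1a holds 2, that of Nlrp3 holds 1, and the 7 bases shown for Il1rn hold none. The whole sites, of 46 bases for Il1b, 68 for Il1a, 39 for Nlrp3 and 7 for Il1rn, held the same counts.

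Over the whole annotated 3′ UTR (the longest GENCODE form of each gene), Il1a held 3 heptamers in 1101 bases, Il1b 3 in 459 bases and Nlrp3 2 in 693 bases. At least as many were found in 2.16%, 0.489% and 3.73% of the 3′ UTRs whose length lay within 1.2-fold of theirs. Il1rap held 1 heptamer in 2686 bases, where 44.2% of 3′ UTRs of like length had at least 1. The 3′ UTRs of Il1rn, Il18, Il18bp, Casp1, Casp4 and Mefv held none, while 23.8% of all 20007 3′ UTRs had at least 1. Among 3′ UTRs of like length the share with at least 1 was 35.9% for Il1rn, 31.3% for Casp4, 18.3% for Mefv and 16.9% for Il18bp. It was only 2.88% for Il18 (123 bases) and 3.25% for Casp1 (88 bases), so that holding none says little for these short 3′ UTRs. The shorter motif ATTTA occurred 9 times in the 3′ UTR of Il1rap, 5 in Nlrp3, 4 in Il1b and 3 in Il1a. There was 1 each in Il18, Il18bp, Casp4 and Mefv, and 0 in Il1rn and Casp1. Of all 3′ UTRs, 61.3% held at least 1 ATTTA. A match describes letters only and is not by itself a binding site.

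The deletion showed in the libraries. Zfp36 was at 5.98, 16.3 and 31.0 FPKM (fragments scaled to transcript length and to the mapped reads of the library) in ΔM cells after 0, 3 and 6 h of LPS, against 118, 1017 and 1782 FPKM in WT cells. Plekhg2, whose gene lies 4103 bases from Zfp36 on chromosome 7, was at 77.0, 268.9 and 931.5 FPKM in ΔM cells and at 7.11, 16 and 26.5 FPKM in WT cells. All 8 macrophage markers reached 1 FPKM in every group, and no marker of T cells, B cells, dendritic cells or fibroblasts exceeded 2.63 FPKM. The macrophage markers summed to 10128, 7340 and 5467 FPKM in ΔM cells at 0, 3 and 6 h. In WT cells the sums were higher, at 12548, 9592 and 6968 FPKM. The 8 neutrophil markers summed to 36.2 FPKM in ΔM and 18.3 FPKM in WT cells at 0 h, with S100a9 highest in both (18.4 and 8.34 FPKM), to 3.23 and 3.63 FPKM at 3 h, and to 17.0 and 5.67 FPKM at 6 h, mostly S100a8 (15.9 and 4.21 FPKM). At 0 h 4 of these 8 reached 1 FPKM in ΔM and 3 in WT cells, with Camp at 0 in ΔM cells, and Ly6g was at 0 in all LPS-treated groups.

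Without LPS, the antagonists Il1rn and Il18bp, the agonists Il1a and Il1b, and Casp4 and Mefv were already more abundant in ΔM than in WT cells. A gene was called higher or lower when its FPKM, with 1 added to each value, differed by at least 1.5-fold (0.58 on the log2 scale) and the larger FPKM was at least 1. By this rule 6 of the 10 mRNAs were higher in ΔM cells at 0 h, where 3.24% of the 11691 genes tested were, and 0 were lower, where 5.15% of the genes tested were. The median log2 ratio of the 10 was 0.80, beside -0.05 over all genes tested. At 3 h 4 were higher (3.45% of genes tested) and 0 lower (4.55%), with a median of 0.56 beside -0.02. At 6 h 1 was higher (1.81%) and 2 were lower (3.36%), with a median of 0.14 beside -0.03. The summed neutrophil markers above were higher in ΔM cells at 0 and 6 h, and low in both genotypes at 3 h. At 6 h this rested on S100a8, the only 1 of the 8 that reached 1 FPKM in either genotype. The part of neutrophils in the members' values was not tested. At 3 h the log2 ratios fell across genes with the GC content of the transcript (Spearman -0.42 over 9710 genes), which at 0 and 6 h was near absent (0.04 and -0.01).

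**Figure D1:**
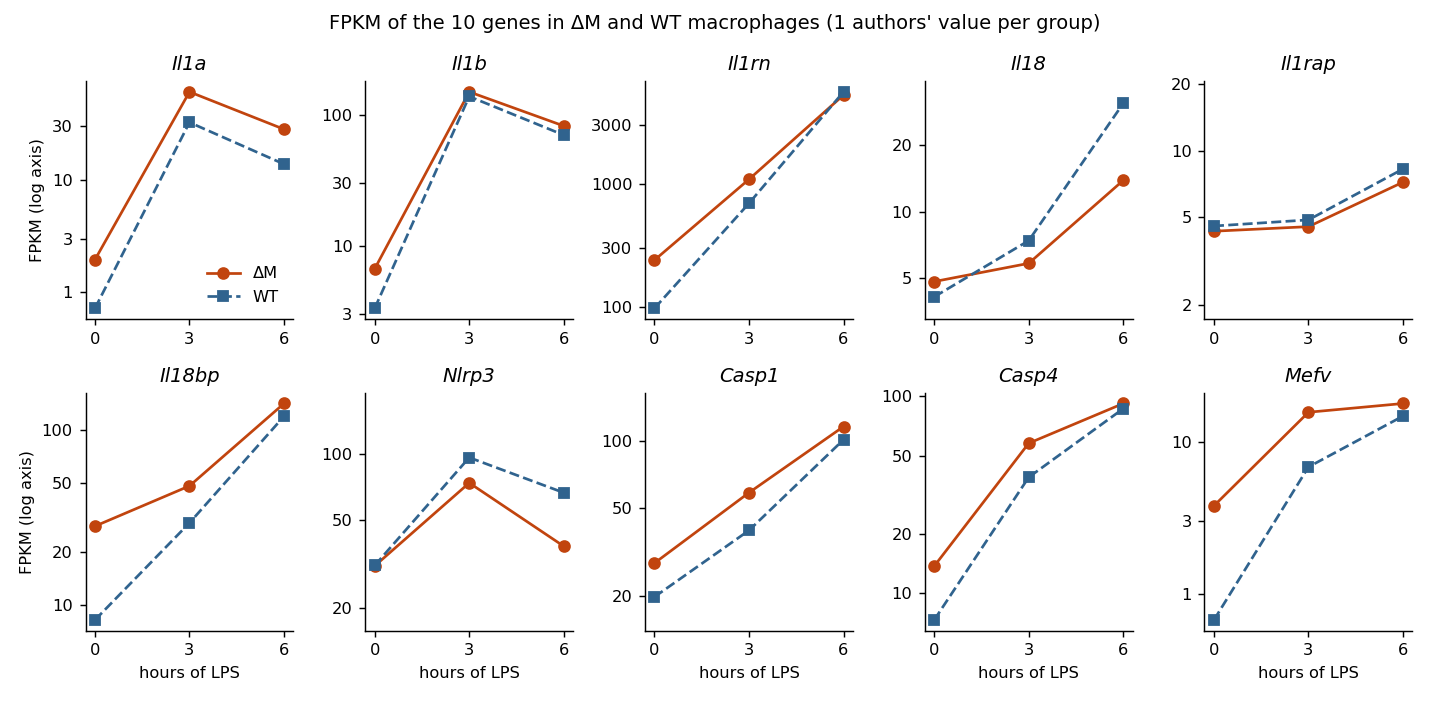
FPKM on a log axis against hours of LPS for each of the 10 genes, ΔM in orange and WT in blue, with 1 pooled value per group and no error bars. Il1a, Il1b and Nlrp3 were highest at 3 h in both genotypes and the other 7 at 6 h. The lines of Il1a, Il1b, Il1rn, Il18bp, Casp1, Casp4 and Mefv lie farther apart at 0 h than at 6 h. Those of Il18, Il1rap and Nlrp3 lie closer together at 0 h.

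Il1a encodes the ligand that is active without cleavage by caspase-1, and it was higher in ΔM cells throughout. It was at 1.95, 60.6 and 28.2 FPKM in ΔM cells at 0, 3 and 6 h, against 0.72, 32.4 and 13.8 FPKM in WT cells. It was the only member past 1.5-fold at all 3 times. The log2 ratios of ΔM over WT were 0.78, 0.88 and 0.98. The first is of low values, of which only that in ΔM cells reached 1 FPKM, and was 1.44 with nothing added to the FPKM. At 6 h 99.6% of the genes tested had a smaller ratio. Its gene lies on the minus strand at chr2:129299609-129310186 (GRCm38).

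Il1b, the ligand that caspase-1 matures, was at 6.64, 150 and 82.3 FPKM in ΔM cells and at 3.31, 138 and 70.1 FPKM in WT cells. The excess in ΔM cells was past 1.5-fold only at 0 h, with log2 ratios of 0.83, 0.12 and 0.23 at the 3 times. Il1b thus lay above Il1a in every group. The ratio of Il1a to Il1b was 0.29, 0.40 and 0.34 in ΔM cells at 0, 3 and 6 h and 0.22, 0.23 and 0.20 in WT cells. It was higher in ΔM cells at 3 and 6 h also with 1 added to each FPKM, but at 0 h it was then 0.39 in ΔM and 0.40 in WT cells, so that no direction is given for 0 h. Il1b (chr2:129364569-129371164, minus strand) is near Il1a, and in GENCODE each of these genes, like Il1rap, overlaps a non-coding gene on the opposite strand. Whether reads were counted by strand is not given in the sources used here.

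Il18 went the other way. This ligand was at 4.82, 5.83 and 13.9 FPKM in ΔM cells and at 4.11, 7.39 and 31.0 FPKM in WT cells. At 0 and 3 h the genotypes were within 1.5-fold of each other, with log2 ratios of 0.19 and -0.30. At 6 h Il18 was 2.15-fold lower in ΔM cells, a log2 ratio of -1.10, and 0.567% of the genes tested had a lower ratio. Its gene is at chr9:50554700-50581841.

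Il1rn was the most abundant of the 10 mRNAs in every group. It was at 239.6, 1083 and 5227 FPKM in ΔM cells at 0, 3 and 6 h, against 97.4, 692 and 5548 FPKM in WT cells. The excess in ΔM cells was 2.45-fold at 0 h and 1.56-fold at 3 h (log2 0.65), and at 6 h the genotypes differed by 1.06-fold with ΔM lower. With the median of genes of like GC content taken off, the value at 3 h was 0.56, inside the limit. Il1rn (chr2:24336860-24351491, plus strand) lies on the same chromosome as both of its agonists.

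Il18bp, the other antagonist, was also higher in ΔM cells at 0 and 3 h. It was at 28.2, 47.9 and 141 FPKM in ΔM cells and at 8.24, 29.5 and 119 FPKM in WT cells, 3.16-fold higher in ΔM at 0 h and 1.60-fold at 3 h. At 6 h the log2 ratio was 0.24, inside 1.5-fold. At 0 h 99.7% of the genes tested had a smaller ratio. Il18bp is on the minus strand at chr7:102015074-102018232.

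The receptor chain Il1rap was low and differed little. It was at 4.31, 4.52 and 7.19 FPKM in ΔM cells and at 4.55, 4.85 and 8.25 FPKM in WT cells, and no log2 ratio exceeded 0.18 in size.

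Of the inflammasome sensors, Mefv was higher in ΔM cells at 0 and 3 h and Nlrp3 was lower in them at 6 h. Mefv was at 3.78, 15.6 and 17.8 FPKM in ΔM cells and at 0.67, 6.81 and 14.7 FPKM in WT cells, 2.86-fold higher in ΔM at 0 h (5.64-fold with nothing added) and 2.13-fold at 3 h, with a log2 ratio of 0.26 at 6 h. Nlrp3 was at 31.1, 73.9 and 38.2 FPKM in ΔM cells and at 31.2, 96.3 and 66.7 FPKM in WT cells. Nlrp3 was level at 0 h (log2 ratio -0.01), was -0.38 at 3 h, inside 1.5-fold, and was 1.73-fold lower in ΔM at 6 h (-0.79), where 1.5% of the genes tested had a lower ratio. Mefv lies at chr16:3706974-3718211 and Nlrp3 at chr11:59541569-59566955.

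The caspase genes, which are neighbours on chromosome 9 (Casp1 at 5298517-5307281, Casp4 at 5308849-5336791), had similar levels after LPS. Casp1 was at 28.1, 58.6 and 117 FPKM in ΔM cells and at 19.7, 39.5 and 102 FPKM in WT cells, with log2 ratios of 0.49, 0.56 and 0.20, none past 1.5-fold. Casp4 was at 13.8, 57.9 and 92.1 FPKM in ΔM cells and at 7.33, 38.9 and 86.7 FPKM in WT cells. Its excess of 1.77-fold in ΔM at 0 h was past the limit, and its log2 ratio at 3 h (0.56) lay just under it. With the median of genes of like GC content taken off, the log2 ratios at 3 h were 0.39 for Casp1 and 0.36 for Casp4.

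**Figure D2:**
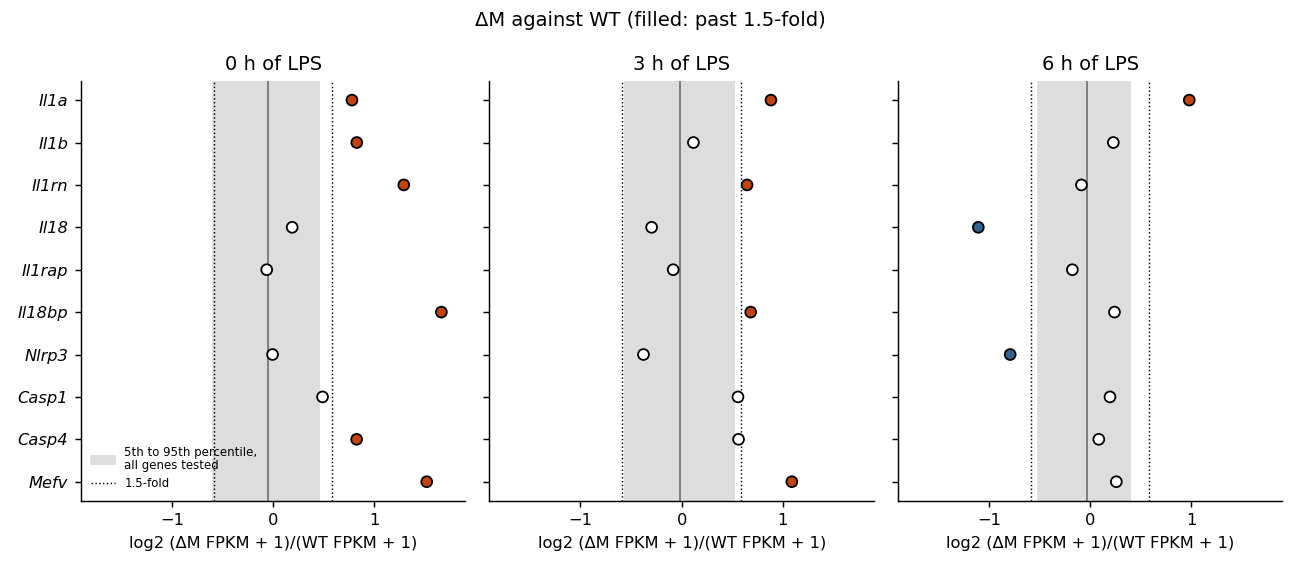
Log2 ratio of ΔM over WT FPKM, 1 added to each, for the 10 genes at 0, 3 and 6 h of LPS. Each point is a ratio of 2 pooled values, filled where it passes 1.5-fold (dotted lines), and the grey band holds the 5th to 95th percentiles of all genes tested around their median (grey line). At 0 h 6 points are filled to the right, at 3 h 4, and at 6 h Il1a alone to the right with Il18 and Nlrp3 to the left.

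Over LPS time the members fell into an early and a late group, the same in both genotypes. Il1a, Il1b and Nlrp3 were highest at 3 h. With 1 added, Il1a at 3 h was 20.9-fold above 0 h in ΔM cells and 19.4-fold in WT cells, but with nothing added the folds were 31.1 and 45.0, so that the order of the genotypes depends on the low 0 h values. Il1b was 19.8-fold above 0 h in ΔM cells and 32.3-fold in WT cells. The other 7 were highest at 6 h, when Il1rn had reached 21.7-fold over 0 h in ΔM cells and 56.4-fold in WT cells.

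Counted by the same rule, 8 of the 10 were higher at 3 h than at 0 h in ΔM cells, against 11.5% of genes tested, and 9 in WT cells, against 11%. In ΔM cells Il18 and Il1rap were not called, and in WT cells Il1rap was not. None was lower, against 31.6% of genes tested in ΔM cells and 34.7% in WT cells. The members' median log2 ratio of 3 over 0 h was 1.51 in ΔM cells and 1.97 in WT cells, where the medians of all genes tested were -0.35 and -0.39. At 6 h compared with 3 h, 5 were higher and 3 lower in ΔM cells, against 8.36% and 19.5% of genes tested. In WT cells 7 were higher and 2 lower, against 9.55% and 20.5% of genes tested. Nlrp3 was 1.91-fold lower at 6 h than at 3 h in ΔM cells, past the limit, and 1.44-fold lower in WT cells, inside it. Mefv was 2.01-fold higher at 6 h than at 3 h in WT cells and 1.13-fold higher in ΔM cells.

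Set between the genotypes, the fold of 6 h over 0 h of LPS restates the ΔM over WT ratios at 0 and 6 h. How many of all genes had a smaller fold in ΔM cells was not counted. That fold was smaller in ΔM than in WT cells for the 9 members other than Il1a, with or without 1 added. For Il1a it was 9.89 in ΔM and 8.60 in WT cells with 1 added and 14.5 and 19.2 with nothing added, so that its direction turned. With 1 added the folds were 4.87 in ΔM and 13 in WT cells for Il18bp, 3.94 and 9.42 for Mefv (4.71 and 22.0 with nothing added), and 6.31 and 10.5 for Casp4. Whether these gains differ beyond the replicates' spread could not be tested.

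Agonists were set against their antagonists within each group. The summed FPKM of Il1a and Il1b over that of Il1rn was 0.0359, 0.194 and 0.0211 in ΔM cells at 0, 3 and 6 h, against 0.0414, 0.247 and 0.0151 in WT cells. The antagonist mRNA thus exceeded the summed agonists in all 6 groups, least at 3 h. The ratio was 1.15-fold lower in ΔM at 0 h, 1.27-fold lower at 3 h and 1.40-fold higher at 6 h. The ratio of Il18 to Il18bp was 0.171, 0.122 and 0.0981 in ΔM cells and 0.499, 0.251 and 0.259 in WT cells. It was lower in ΔM at all 3 times, by 2.92-fold, 2.06-fold and 2.64-fold. At 0 h that difference lay mainly in Il18bp, the larger of the 2 log2 ratios (1.66 beside 0.19), and at 6 h mainly in Il18 (-1.10 beside 0.24 for Il18bp).

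**Figure D3:**
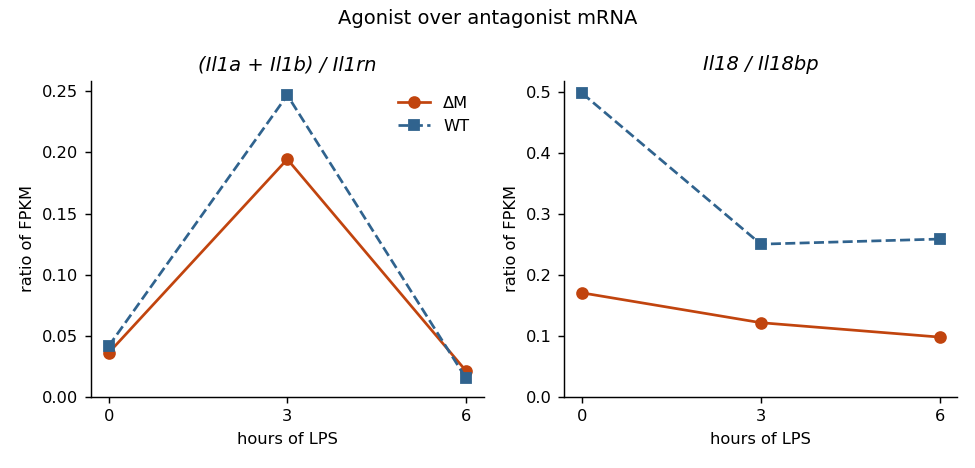
Ratio of agonist to antagonist FPKM against hours of LPS, ΔM in orange and WT in blue, 1 value per group. The ratio of Il1a plus Il1b to Il1rn peaks at 3 h at 0.194 in ΔM and 0.247 in WT cells, and the ratio of Il18 to Il18bp is lower in ΔM cells at all 3 times.

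Decay was compared by the slope of log2 FPKM on time after ActD, fitted by the authors over 9 libraries per condition. The half-life is -1 over the slope, and mRNAs with a half-life of 180 min or more are listed as stable. Since FPKM compares an mRNA with all others of the same library, a slope can be above 0. Of the 10 mRNAs, 8 were listed as stable in ΔM cells at 3 h and 9 at 6 h, and 8 in WT cells at both times, where between 77.4% and 83% of all genes at 1 FPKM or more were. Only Nlrp3 and Mefv had half-lives under that limit.

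Nlrp3 was the shortest-lived member in ΔM cells at 3 h. Its half-life there was 76.8 min, against 87.1 min in WT cells. At 6 h it was listed as stable in ΔM cells, against 132 min in WT cells. In the fits, 44.4% of Nlrp3 mRNA was left after 90 min of ActD in ΔM cells and 48.9% in WT cells at 3 h, and 71.9% and 62.4% at 6 h. The slope difference at 6 h was 0.21 log2 units over 90 min, ΔM slower, and 76.4% of the genes tested had a smaller value. The fitted values lay on either side of the 180 min limit.

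Mefv, which has no heptamer in its annotated 3′ UTR, also had a half-life under 180 min in all 4 conditions. Its half-life was 105 min in ΔM and 81.9 min in WT cells at 3 h, and 145 min in ΔM and 156 min in WT cells at 6 h. Il1a and Il1b, with 3 heptamers each, were listed as stable in all 4 conditions. Of Il1a, the fits left 89.3% in ΔM and 97.3% in WT cells after 90 min at 3 h, and 89.6% and 76.0% at 6 h. The slope difference of Il1a at 3 h was -0.12 log2 units over 90 min. It was 0.26 with the median of genes of like GC content taken off. From 3 to 6 h in WT cells the slope of Il1a changed by -0.36 log2 units over 90 min, and by -0.02 with that median taken off. Of Il1b the fits left 89.6% in ΔM and 90.6% in WT cells at 3 h, and 89.7% and 84.0% at 6 h. At 6 h both ligands were lost more slowly in ΔM cells, by 0.24 and 0.10 log2 units over 90 min, and neither was past the limit. The median over all genes tested was 0.05, and 79.9% had a smaller value than Il1a and 59.5% a smaller value than Il1b. With the median of genes of like GC content taken off, the values were 0.18 for Il1a and 0.003 for Il1b.

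**Figure D4:**
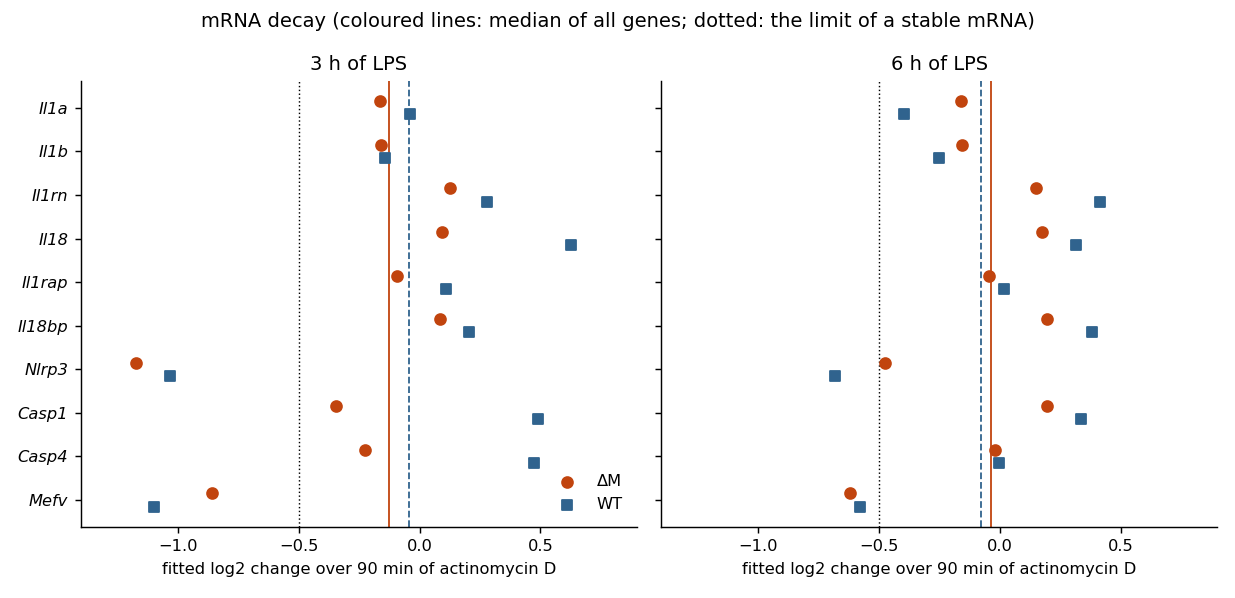
Fitted log2 change over 90 min of ActD for each member after 3 h (left) and 6 h (right) of LPS, ΔM circles above WT squares, 1 authors' slope per condition with no error bars. Solid and dashed coloured lines are the medians of all genes in ΔM and WT cells, and mRNAs right of the dotted line (-0.50) are listed as stable. Nlrp3 and Mefv lie farthest left, and Casp1 and Casp4 are on opposite sides of 0 in the genotypes at 3 h.

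A decay difference was called at 1.5-fold over 90 min or more (0.58 log2 units) with a mean FPKM of at least 1. At 3 h 0 of the 10 were slower in ΔM cells, where 6.33% of the genes tested were, and 2, Casp1 and Casp4, were faster, where 12.1% were. Casp1 changed by -0.34 log2 units over 90 min in ΔM and 0.49 in WT cells, and Casp4 by -0.23 in ΔM and 0.47 in WT cells. At 3 h, slope differences rose across genes with the GC content of the transcript (Spearman 0.57 over 9460 genes). At 6 h this was near 0 (-0.03). The Casp1 transcript has 41.1% GC and that of Casp4 38.1%, both under the median of 49.4% over all coding genes. With the median of genes of like GC content taken off, the slope differences were -0.45 for Casp1 and -0.24 for Casp4, both inside the limit.

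At 6 h 0 members were slower and 0 faster in ΔM cells, where 3.28% and 1.56% of the genes tested were. The members' slope differences ran from -0.26 for Il1rn to 0.24 for Il1a. Il18, which was 2.15-fold lower in ΔM cells at 6 h, was listed as stable in both genotypes and its slope difference was -0.14. Between 3 and 6 h, Nlrp3 alone was called slower at 6 h in ΔM cells (0.70 log2 units, 6.38% of genes tested), and 0 were faster (2.31%). In WT cells 0 were slower (5.03%) and 0 faster (6.8%), the difference being 0.35 for Nlrp3 and 0.52 for Mefv. Slope changes from 3 to 6 h also followed GC content across genes, with a Spearman value of 0.49 in WT cells (9418 genes). In ΔM cells that value was -0.23 (9325 genes).

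The same rule was applied to other genes of the pathway. Of 61 listed genes (receptors, other ligands, signalling proteins, inflammasome parts and executioners), 52 were in the table. At 0 h 2 of 40 tested were higher in ΔM cells and 2 lower, where 3.24% and 5.15% of all genes tested were. At 3 h 2 of 35 were higher and 0 lower (3.45% and 4.55% of all genes tested), and at 6 h 0 of 32 were higher and 1 lower (1.81% and 3.36%). Their median log2 ratios were 0.06, 0.02 and -0.04. The only one past 1.5-fold at 3 or 6 h with at least 10 FPKM was Irak2, a kinase of the IL-1 and Toll-like receptor pathway. It was at 13.2, 68.6 and 47.0 FPKM in ΔM cells and at 10.7, 78.4 and 72.1 FPKM in WT cells, with a log2 ratio of -0.61 at 6 h.

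Most receptors of the family were scarce, and the genes of this paragraph were chosen after their values were seen. Il1r1, the signalling receptor, was at most at 0.62 FPKM in any group and Il18r1 at most at 0.02 FPKM. Il18rap, the accessory chain of the IL-18 receptor, was at 0.71, 2.54 and 6.20 FPKM in ΔM cells and at 2.02, 3.22 and 9.18 FPKM in WT cells. Pycard, the adaptor that joins sensors to caspase-1, and Gsdmd, which encodes the pore former gasdermin D, were within 1.5-fold at all 3 times. Il1f9 (the ligand IL-36γ) was at 3.33, 6.48 and 5.14 FPKM in ΔM cells and at 1.42, 2.33 and 5.46 FPKM in WT cells. Casp12, a paralog of Casp4, was at 0.08, 3.44 and 8.62 FPKM in ΔM cells and at 0.00, 1.31 and 5.94 FPKM in WT cells, and Il1r2, the decoy receptor of IL-1, was at 1.96, 0.32 and 0.26 FPKM in ΔM and 0.86, 0.22 and 0.33 FPKM in WT cells. Il1rl1, which encodes the receptor of IL-33, was lower in ΔM cells at 0 h, at 0.25, 0.14 and 0.03 FPKM in ΔM and 1.27, 0.40 and 0.10 FPKM in WT cells.

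The genes whose course over the 6 groups was most like a member's were found by the distance between log2 profiles centred on their mean, among 6545 genes that reached 10 FPKM. For Il1a these were Il1b (distance 0.93), Src (0.94) and Gm12250 (1.02). For Il1b they were Nfkbiz (0.69), Tnfaip3 (0.71) and Ccrl2 (0.75), of which Nfkbiz and Tnfaip3 encode regulators of NF-κB signalling. For Il1rn they were Cfb (0.53), the complement factor B gene, Fcgr4 (0.57), an Fc receptor, and Slc28a2 (0.59), a nucleoside transporter. For Mefv they were Mnda (0.54), Trim30d (0.66) and Zbp1 (0.70), a sensor of nucleic acids. Zbp1 had a course of 123, 272 and 497 FPKM in ΔM cells and 28.9, 149 and 408 FPKM in WT cells. Like Mefv, it lay farther above WT in ΔM cells at 0 h than at 6 h. This likeness is favoured by the choice of Zbp1, which was made by its distance to Mefv over these same values.

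The promoters were searched for 3 motifs, since 6 members were higher in ΔM cells before LPS. In the 14 RefSeq windows of the 10 genes (GRCm38.p6, 250 bases before to 50 after a start site, 32851 windows in all), a κB-like motif (GGG, any 2 bases, TTTCC, on either strand) was found for Casp4 and Il1rn only, while 1.63% of all windows held it. An interferon-type motif (GAAA, any 2 bases, GAAA) was found in Il1rap only (3.44% of all windows) and a STAT-type motif (TTC, any 3 bases, GAA) in none (8.3%). The windows are printed with the κB-like motif in capitals, that of Casp4 from 1 of its 2 overlapping windows and that of Il1rn from 1 of its 3 start sites.
Casp4, chr9:5308599-5308898, plus strand: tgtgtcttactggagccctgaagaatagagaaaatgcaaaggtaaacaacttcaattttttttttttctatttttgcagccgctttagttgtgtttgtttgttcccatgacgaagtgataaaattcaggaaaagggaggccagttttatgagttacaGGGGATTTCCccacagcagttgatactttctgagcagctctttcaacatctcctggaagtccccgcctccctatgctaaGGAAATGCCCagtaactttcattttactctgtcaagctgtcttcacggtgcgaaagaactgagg
Il1rn, chr2:24345121-24345420, plus strand: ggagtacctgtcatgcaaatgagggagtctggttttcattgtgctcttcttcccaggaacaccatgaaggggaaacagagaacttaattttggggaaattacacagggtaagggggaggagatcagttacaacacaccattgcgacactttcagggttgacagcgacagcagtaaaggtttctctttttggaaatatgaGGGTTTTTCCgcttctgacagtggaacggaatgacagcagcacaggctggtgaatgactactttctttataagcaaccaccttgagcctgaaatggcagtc
The motif lies 93 and 14 bases before the Casp4 start shown and 51 bases before that Il1rn start. The windows of Il18bp and Mefv, which had larger ΔM excesses at 0 h, held none of the 3 motifs, which says only that these letters are not in these windows.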

How the data were processed

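Bone marrow was from 7- to 9-week-old mice. The study prepared libraries with the SENSE mRNA-Seq kit, read 100-base single ends, aligned them with GSNAP to mm10 (tools as in the submitters' processing notes), quantified genes with Mix2 and tested expression with DESeq2. The deposited FPKM are 1 value per group without ActD, taken here as the authors' means. Half-lives (min) and decay rates (the slope of log2 FPKM per min) were also deposited, with half-life equal to -1 over the rate in the table. The deposited fold changes, p-values and FDRs of the authors' own comparisons were not used. Depth per library is unknown.

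Log2 ratios (1 added to each FPKM), slope differences times 90 min, list counts and profile distances were computed in Python 3.11.15 with numpy 2.4.6 and pandas 2.3.3. The calling step was tested on simulated data. Named were all members, pathway genes past 1.5-fold at 3 or 6 h with 10 FPKM (at most 6 per direction), the 3 nearest profiles of Il1a, Il1b, Il1rn and Mefv, and Zfp36 and Plekhg2. Receptors, adaptors and ligands outside this rule were chosen after their values were seen. Members and lists were chosen with earlier results of these data known. Sequences are from RefSeq (GRCm38.p6) and, for crosslinked stretches, the study's site list on mm9. GC content and 3′ UTRs are from GENCODE coding transcripts.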

Additional observations from a re-analysis of the deposited data

How the results depend on the processing

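No paired analysis was possible because the tables give 1 pooled value per group, and for the same reason no replicate could be left out. No called value reversed under any alternative. At 2-fold in place of 1.5-fold, 3 members were higher in ΔM cells at 0 h (0.915% of all genes tested), 1 at 3 h (0.596%) and 0 at 6 h (0.369%), and 1 was lower at 6 h (0.803%). At 6 h against 3 h, 3 were then higher (3.39%) and 1 lower (5.89%) in ΔM cells, and 1 was lower in WT cells (6.17%). With a limit of 1 log2 unit over 90 min, 0 members were faster in ΔM cells at 3 h (3.12%) and 0 slower at 6 h than at 3 h in ΔM cells (1.33%). With half-lives 2-fold apart or stable in 1 genotype only, 0 were faster in ΔM cells at 3 h (8.04%) and 1, Nlrp3, was slower at 6 h (7.57%). With the median of 20 bins of GC content taken off, an alternative chosen after seeing the data, 0 were faster at 3 h (7.17%), and the log2 ratio of Il1rn at 3 h was 0.56, just under the limit. A pseudocount of 0.1, a minimum of 5 FPKM or none, and centring on the median left every count of members within 1.5-fold of the one given. With nothing added to the FPKM, also chosen after seeing the data, Il1rap at 6 h against 3 h in ΔM cells passed the limit (0.67). Adding 1 to each sum turned the direction of none of the 6 differences in agonist to antagonist ratio. Limits are the unknown depth and spread, the 6 pooled FPKM values behind the expression comparisons and the 4 slopes behind those of decay, and low values such as Il1a and Mefv in WT cells at 0 h.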
